A study of Mus musculus with 6 samples.

Results

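The regions described here were bound by ESRRB in naive mouse embryonic stem cells, were still called 48 h after the naive culture condition was withdrawn, and were no longer called at 96 h. They were found by pooling the peak intervals of 3 ESRRB ChIP-seq libraries and merging intervals that overlapped by at least 1 bp. Of 18634 merged regions, 2611 (14%) held an interval of the naive library and of the 48 h library and none of the 96 h library. They are called kept-to-48 h regions below. ChIP-seq sequences the chromatin that an antibody pulls down, here a mouse monoclonal antibody to ESRRB. The cells were E14, an established mouse embryonic stem cell line, grown on gelatin in serum-free N2B27 medium. In 2iL the medium also held 3 µM CHIR99021, which inhibits the kinase GSK3, 1 µM PD0325901, which inhibits the kinase MEK, and the cytokine LIF. The other cells were plated in 2iL, moved to N2B27 without it, and collected 48 h or 96 h later. Each condition had 1 ESRRB library, so no value below has a replicate check, and intervals are exact Clopper-Pearson 95% intervals that cover counting error only.

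ESRRB is an orphan nuclear receptor that binds an extended half-site of the nuclear receptor family, and it sustains the naive transcription factor network together with NANOG, the KLF factors and TFCP2L1. Inhibition of GSK3 raises its expression by lifting the repressor TCF7L1, and its level falls as cells leave the naive state for the formative state. A peak caller reports a region where the reads pass a threshold over the local background. A region that was not called at 96 h may therefore still have held ESRRB below that threshold.

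No genome sequence was used, so sequence was read from RefSeq promoter windows of GRCm38.p6, the assembly of the mm10 coordinates, which run from 250 bases before to 50 after a gene start. The 2iL summit of 58 kept-to-48 h regions lay in 69 such windows, and 24 of the windows (34.8%, interval 23.7 to 47.2) held AAGGTCA, the core of the ESRRB half-site, on either strand. All 32851 windows held it in 4.72% (4.49 to 4.95), and the 139 windows with a summit called in all 3 libraries held it in 34.5% (26.7 to 43.1). The 175 windows with a summit called in 2iL alone held it in 20.6% (14.8 to 27.3). Windows that overlap were each counted, so some share the same core, as at Hspd1 and Hspe1. The intervals treat windows as separate and are too narrow to that extent. The 9-base form TCAAGGTCA was in 2 of the 69 windows (2.90%, 0.353 to 10.1), an interval that takes in the 0.423% of all windows. It was in 7 of the 139 windows with a summit called in all 3 libraries (5.04%). With a summit called in 2iL alone, 1 of the 175 windows held it (0.571%). The sequences below show that core at the start of genes whose region was kept at 48 h and not called at 96 h. They read 5′ to 3′ on the strand of the named gene, end before its start, and have the core (AAGGTCA, or TGACCTT where it lies on the other strand) in capitals. For Gm30085 the capitals are the 9-base form. The other window with that form, at D130020L05Rik, is not shown. All but Gm30085 were chosen after their values were seen.
1500002F19Rik, chr7:132896642-132896740, minus strand: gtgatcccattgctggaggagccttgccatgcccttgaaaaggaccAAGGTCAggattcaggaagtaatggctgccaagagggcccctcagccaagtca
Cenpb, chr2:131180161-131180259, minus strand: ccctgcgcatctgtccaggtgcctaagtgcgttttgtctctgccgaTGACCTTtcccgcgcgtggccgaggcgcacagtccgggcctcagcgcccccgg
Hspe1, chr1:55088054-55088147, plus strand: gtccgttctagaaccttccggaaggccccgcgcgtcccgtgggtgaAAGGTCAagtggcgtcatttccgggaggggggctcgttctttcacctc
Dhps, chr8:85071650-85071748, plus strand: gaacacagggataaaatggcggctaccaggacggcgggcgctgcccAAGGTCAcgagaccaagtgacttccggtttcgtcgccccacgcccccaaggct
Gm30085, chr15:93001410-93001509, plus strand: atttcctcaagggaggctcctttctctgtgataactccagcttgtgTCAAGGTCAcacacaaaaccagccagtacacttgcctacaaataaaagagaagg

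The core lay 5 bp from the 2iL summit at Dhps, which encodes deoxyhypusine synthase, and 6 bp from it at Cenpb, which encodes a centromere protein. It lay 33 bp away at the noncoding gene 1500002F19Rik, 69 bp at Gm30085 and 85 bp at Hspe1, which encodes a mitochondrial chaperonin and shares its promoter with its partner Hspd1. The fold enrichment over local background, which is each library's own and is not compared between libraries as a change, was 18.0 in 2iL and 8.73 at 48 h at 1500002F19Rik. It was 9.22 and 4.44 at Cenpb, 5.03 and 3.25 at Hspd1 and Hspe1, 4.31 and 3.09 at Dhps, and 3.23 and 3.52 at Gm30085. The octamer ATTTGCAT, bound by OCT4, was in 1 of the 69 windows, the STAT site TTCCNGGAA in 1, the KLF-type site CCACACCC in 2 and the AP-2 site GCCNNNGGC in 23 (33.3%, 22.4 to 45.7). All windows held these in 1.74%, 1.15%, 3.56% and 16.6%. The AP-2 site was in 23.7% of the windows with a summit called in all 3 libraries and in 25.7% of those with a summit called in 2iL alone, both inside that interval. A match is a run of letters in the window and was not tested for binding.

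The 2iL list held 13767 regions, the 48 h list 10970 and the 96 h list 7018. Read totals are not in the peak lists, so depth was read from the reads at each summit, which follow from its fold and p. The most common background level, a floor that rises with depth, stood at 1.60 for the 48 h library and 1.16 for the 96 h library, relative to 2iL. The floor at 96 h was 0.722 times that at 48 h. The 2iL library had the lowest floor and the longest list. By the floor, depth was lower at 96 h than at 48 h, and no read totals were at hand to check this. The part of depth in the missing calls was not tested.

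Kept-to-48 h regions were of middling strength in 2iL and weaker in rank at 48 h. The regions were chosen by the calls of the 3 libraries, so their folds are a description. In 2iL the fold ran from 1.82 to 25.1 with a median of 6.05, and at 48 h from 2.08 to 16.0 with a median of 4.66. The median region stood at the 52.7 percentile of the 2iL list and at the 43.4 percentile of the 48 h list. The 4260 regions called in all 3 libraries had median folds of 7.63, 6.82 and 5.72 in the order of the time course, at median percentiles of 71.7, 74.4 and 64.8 in their lists. The 6277 regions called in 2iL alone had a median 2iL fold of 5.19. A higher rank at 48 h than in 2iL was held by 38.1% of the kept-to-48 h regions (36.2 to 40) and by 52.6% of those called in all 3 libraries (51.1 to 54.1).

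**Figure D1:**
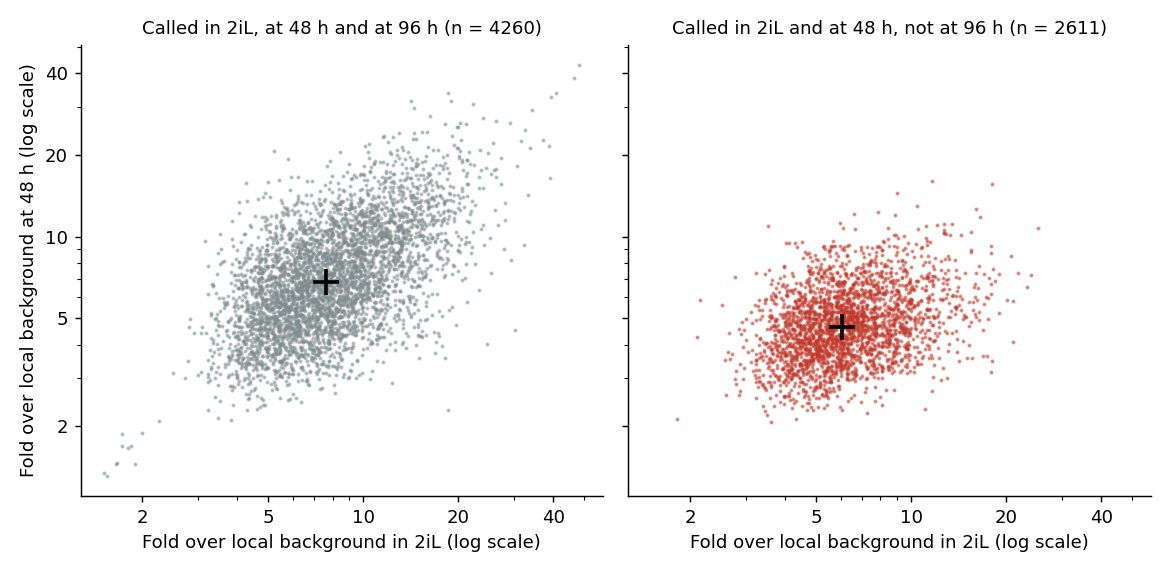
Fold over local background in 2iL (x axis, log scale) and at 48 h (y axis, log scale) for each merged region, with the medians as a cross. The 4260 regions called in all 3 libraries (left) reach folds above 40 in both, and the 2611 kept-to-48 h regions (right) reach 16.0 at 48 h.

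Most summits in 2iL and at 48 h lay close together, which the rule favours because it asks for overlapping intervals. The highest summit of a kept-to-48 h region lay a median of 33 bp from its 2iL position at 48 h, and within 50 bp in 67.5% of regions (65.7 to 69.3). The largest shift was 3032 bp. The median was 23 bp in regions called in all 3 libraries, with 77.6% (76.3 to 78.8) within 50 bp. The merged width was a median of 1177 bp, between the 1496 bp of regions called in all 3 libraries and the 877 bp of those called in 2iL alone. One summit in 2iL was listed in 58.5% of kept-to-48 h regions and in 53.5% of those called in all 3 libraries. At the edge of the rule, the smallest overlap between a 2iL and a 48 h interval was 204 bp, in Kazn. The kept-to-48 h region nearest to a 96 h region was beside Tle5, 2 bp away. A 96 h region lay within 1 kb of 66 kept-to-48 h regions. Among these was 1 region each near the listed genes Nrip1, Jarid2, Etv5, Bmpr1a and Utf1, at 49 to 767 bp. Others lay slightly farther from a 96 h region, such as the strongest at Nr0b1, Etv5 and Spry2 and that at Tet1, at 1094 to 1392 bp. Just outside the rule, a region at Abt1 counted as called at 96 h through an overlap of 62 bp, with folds of 4.02, 4.2 and 1.79.

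Among the 6871 merged regions called in 2iL and at 48 h, the share that was not called at 96 h, 38% in all, fell with strength at 48 h. It was 63.6% (61.0 to 66.1) in the weakest 20% by 48 h fold and 6.04% (4.84 to 7.43) in the strongest 20%. Ranked by 2iL fold the same shares were 53.3% and 18.3%. Ranked by the reads at the 48 h summit they were 76.4% (74.1 to 78.7) and 2.04% (1.36 to 2.93), the widest spread of the 3 rankings. Of 955 regions in the strongest 20% of the 2iL list but not of the 48 h list, 43.5% (40.3 to 46.7) were not called at 96 h. Of 797 regions in the strongest 20% at 48 h but not in 2iL, 13.8% (11.5 to 16.4) were not. These shares rest on the calls that chose the regions and are given without a test.

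**Figure D2:**
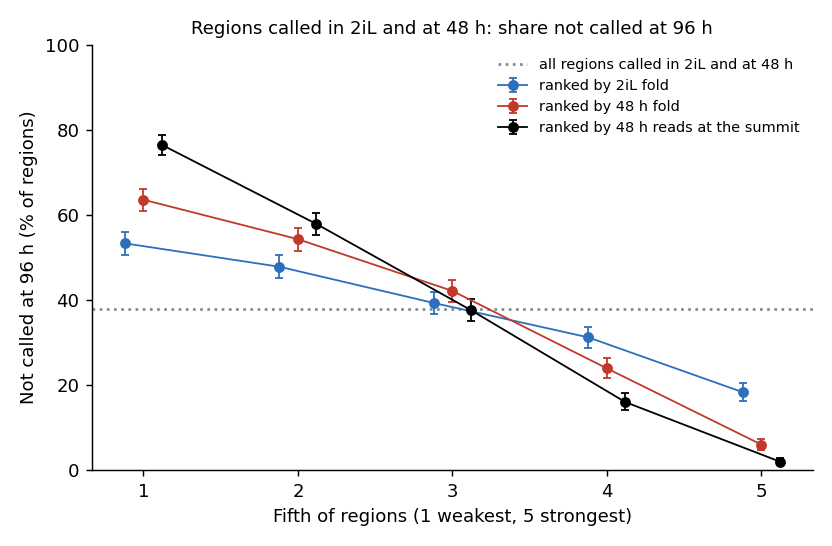
Share of regions called in 2iL and at 48 h that was not called at 96 h (y axis, %), in 5 equal groups from weakest to strongest (x axis), ranked by 2iL fold, 48 h fold or 48 h reads at the summit. Bars are exact 95% intervals, and the share drops from 76.4% to 2.04% when regions are ranked by 48 h reads.

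At 48 h most of these regions had values above the weakest calls of the 96 h list. The 48 h fold of all 2611 regions was at or above the lowest fold of the 96 h list, that of 2514 (96.3%) was at or above its 5th percentile, a fold of 2.81, and that of 1197 (45.8%, 43.9 to 47.8) at or above its median of 4.82. When the 48 h reads and background of each region were scaled to the 96 h background floor, the −log10 p had a median of 16.3. On that scale all 2611 reached the lowest value of the 96 h list, 2547 (97.5%, 96.9 to 98.1) its 5th percentile of 7.2, and 1108 (42.4%, 40.5 to 44.4) its median of 18.0. The same scaling left 84.1% (82.9 to 85.1) of the regions called in all 3 libraries at or above that median, and 100% at or above the lowest value, 1.07. That lowest value is not known to be the threshold for calls, which was not given. The regions were chosen as called at 48 h, with a −log10 q of 2.16 or more, so reaching so low a value was nearly set by the rule. The part of depth in the missing calls was not tested by these counts. The scaling carries the 48 h enrichment over unchanged and is a calculation, not a measurement at 96 h.

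The strongest kept-to-48 h region of 2iL lay inside Cntnap2, a neuronal adhesion gene (chr6:47225216-47226167). It had a fold of 25.1 in 2iL, from 151 reads at the summit, and 10.8 at 48 h. The next lay inside Lipc, which encodes hepatic lipase (chr9:70890641-70892058), with folds of 23.9 and 7.23. A region 74.8 kb from Cops8, a signalosome subunit gene (chr1:90527536-90528873), had folds of 23.2 and 6.53. Regions nearest Slco5a1, Ralgps2, Ppp2r2c, Dnajb9, Ak4, Slc24a5, Runx1t1 and Gm826 had 2iL folds of 18.2 to 21.8 and 48 h folds of 4.10 to 8.47. All of these stood at or above the 98.7 percentile of the 2iL list, and that beside Ralgps2 (chr1:156983123-156984373) stood at the 30.2 percentile at 48 h. The region nearest Gm826 lay 361 bp from a region called in all 3 libraries. A region beside Tcf7l1, described with the formative genes, completed the 12 strongest.

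The 12 regions of highest fold within the 48 h list were all others than the 12 of highest 2iL fold. Inside Capsl (chr15:9451801-9453764) the fold was 11.6 in 2iL and 16.0 at 48 h, the highest 48 h value, from 126 and 147 reads. Beside Plpp4, a lipid phosphatase gene, it was 18.1 and 15.6. Beside Hnrnpc, which encodes an RNA-binding protein, it was 9.001 and 14.5. The other 9 of the 12 strongest at 48 h were nearest Frk, Auh, Bckdhb, Slc37a3, Tfdp2, Ncapd3, Cdkal1, 8030462N17Rik and Iqck. They had folds of 11.1 to 13.0 at 48 h and of 5.96 to 16.5 in 2iL. The 2 folds stood farthest apart with the 48 h value higher in the region nearest Zfp827 (3.54 and 10.98, from 57 and 131 reads). Next came those nearest Grik3, Atg5, Rcor2, a corepressor gene, and Olfm4. The 2iL value at Grik3 rested on 12 reads, with a −log10 q of 0.739. The 2iL value was the higher by most in the region nearest Sgk3 (17.97 and 3.18, from 183 and 46 reads). Those nearest Plxnb2, Ralgps2, Tspan5 and Slc39a11 followed, the last 293 bp from a region called in all 3 libraries. Each fold is relative to its own library's background, so these pairs describe the 2 lists and are not a measured change.

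Fewer of these regions lay at gene ends than among the regions called in all 3 libraries. Protein-coding genes had 1 of their ends within 1 kb of the 2iL summit in 235 of them (9.0%, 7.93 to 10.2), against 13.2% (12.2 to 14.3) of regions called in all 3 libraries and 9.32% (8.61 to 10.1) of those called in 2iL alone. A further 1161 (44.5%) lay elsewhere inside a gene, 776 (29.7%) within 50 kb of one and 439 (16.8%) farther away. Read the other way, 29.4% (26.3 to 32.7) of the 799 regions at gene ends that were called in 2iL and at 48 h were not called at 96 h, against 39.1% (37.9 to 40.4) of the 6072 elsewhere. At gene starts of known strand the share was 27.1% (23.2 to 31.2) of 506 regions, and at the far ends 42.7% (33.6 to 52.2) of 117.

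The gene-end difference depended on how strength was measured. Among regions in the middle 20% by 48 h fold, 16.4% (10.5 to 24.0) at gene ends and 44.8% (42.0 to 47.6) elsewhere were not called at 96 h. Among those in the middle 20% by 48 h reads at the summit the shares were 39.7% (32.6 to 47.1) and 37.3% (34.6 to 40.1). That ranking was added after the data were seen. The local background at 48 h was a median of 20.9 reads at gene ends and 12.4 elsewhere, and the fold a median of 4.74 and 5.83. Regions share a library and are not replicates, so no test was made, and the part of the background in this difference was not tested.

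**Figure D3:**
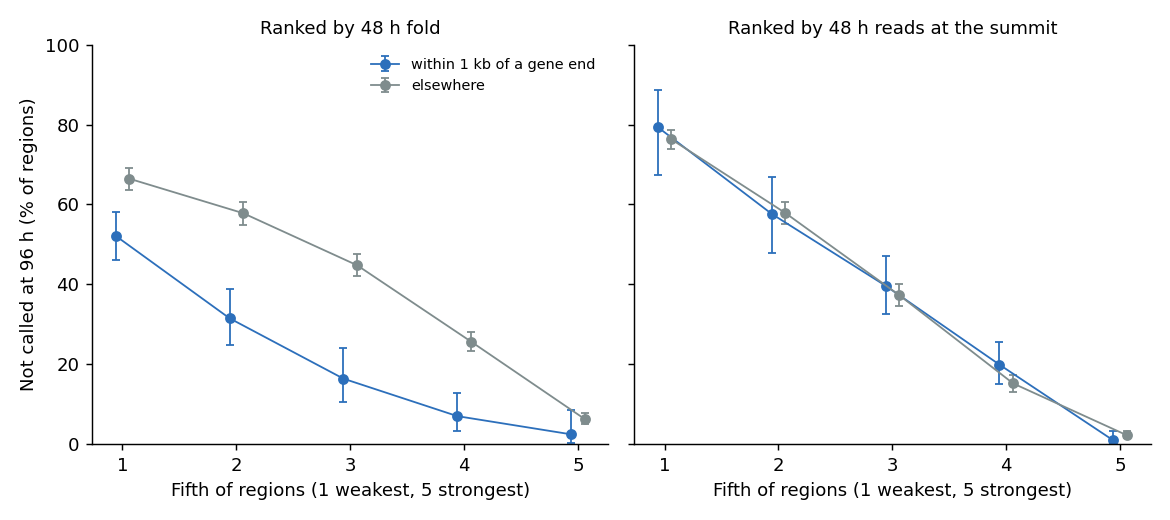
Share of regions called in 2iL and at 48 h that was not called at 96 h (y axis, %), at gene ends and elsewhere, in 5 groups from weakest to strongest by 48 h fold (left) or 48 h reads at the summit (right), with exact 95% intervals. The lines stand apart by fold (16.4% and 44.8% in the middle group) and lie together by reads (39.7% and 37.3%).

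Regions at gene ends lay at genes of several kinds. The region at Fhl3, also within 50 kb of Pou3f1, had folds of 13.4 in 2iL and 5.31 at 48 h. Amt, which encodes a glycine cleavage enzyme, had a region within 1 kb of an end at each of 2 positions, with folds of 12.5 and 2.95 and of 11.4 and 4.53. The median folds of all 235 were 5.14 in 2iL and 3.72 at 48 h. Some genes of mitochondrial respiration are given as examples, picked after their values were seen, with no count against other genes. Cox6c, a subunit of cytochrome c oxidase, had folds of 11.6 and 3.67, with its summit 268 bp from the gene end. Ndufs4, a subunit of complex I, had 8.93 and 3.49, and Atp5a1, the alpha subunit of ATP synthase, 8.94 and 5.11. Cox5b, Ndufc2, Ndufb6, Atp5g1, Ndufa9 and Ndufs1 had 2iL folds of 4.35 to 6.47 and 48 h folds of 2.67 to 5.18.

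A further region lay at a microRNA gene cluster. The region chr3:127544356-127545332 (folds of 4.004 and 3.62) had its summit 367 bp from the hairpin of Mir302b, the first of a cluster that is characteristic of pluripotent cells. The nearest 96 h region was 42788 bp away. Some mature products of the cluster are shown. The first 2 share a seed, bases 2 to 8 in capitals, and the third does not. Bases 2 to 8 of mmu-miR-302c-3p, not shown, are listed as AGUGCUU and differ from both.
mmu-miR-302b-3p: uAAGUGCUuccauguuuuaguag
mmu-miR-302d-3p: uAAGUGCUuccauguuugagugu
mmu-miR-367-3p: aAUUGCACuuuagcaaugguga

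The sequences are from RefSeq, and no microRNA level was measured. A pair of regions lay at the cluster of Mir182, Mir96 and Mir183, known from sensory cells, the first between Mir182 and Mir96 and the other beyond Mir183. At chr6:30167119-30167989 the folds were 3.60 and 3.21, and at chr6:30173019-30175799 they were 5.001 and 2.53. Both were weak, below the 2iL median of 6.05.

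Another kept-to-48 h region lay within 10 kb of 186 of the kept-to-48 h regions (7.12%, 6.17 to 8.18). One lay that close to 7.7% (6.92 to 8.54) of regions called in all 3 libraries and to 6.6% (5.99 to 7.24) of those called in 2iL alone, and the 3 intervals overlapped. A region called in all 3 libraries within 10 kb of 303 kept-to-48 h regions (11.6%, 10.4 to 12.9). That share was 15.0% (13.9 to 16.1) among regions called in all 3 libraries and 10.0% (9.30 to 10.8) among those called in 2iL alone. By chromosome, the share of regions called in 2iL and at 48 h that was not called at 96 h ran from 32.4% (23.6 to 42.2) on X to 45.4% (39.1 to 51.8) on chromosome 14.

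Magi1 had the most of any gene. This gene, which encodes a scaffold protein of cell junctions, spans 608 kb (chr6:93675453-94283929), and 24 regions called in 2iL lay within 50 kb of it. Of these, 11 were kept at 48 h and not called at 96 h, all with summits inside the gene, 8 were called in all 3 libraries, 4 in 2iL alone and 1 in 2iL and at 96 h. The 11 had 2iL folds of 4.19 to 8.78 and 48 h folds of 3.67 to 9.55. Regions of both kinds were interspersed along the gene. The region with folds of 6.94 and 6.41 (chr6:94177243-94178442) lay between a pair called at all times, with folds of 9.55, 11.3 and 10.8 on one side and of 10.4, 14.4 and 15.3 on the other. A long gene has more room for regions, and the count was not scaled by length.

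**Figure D4:**
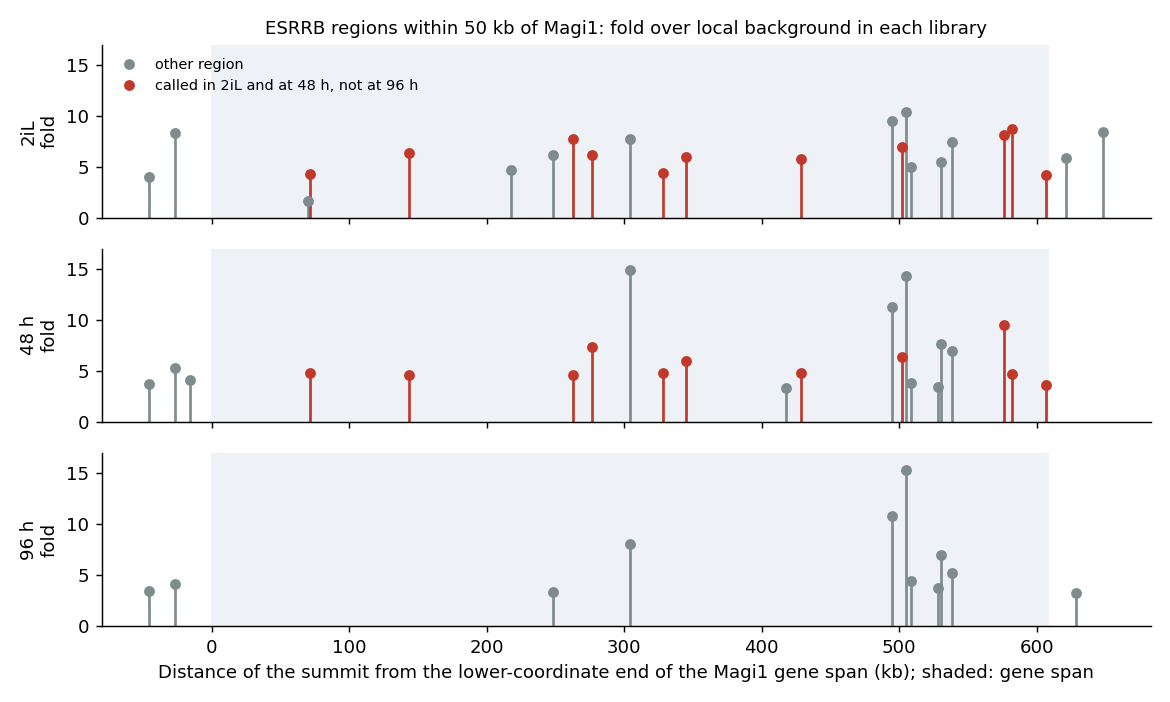
Fold over local background (y axis) of each ESRRB region within 50 kb of Magi1 in each library (rows, 2iL on top), by distance of its summit from the lower-coordinate end of the gene (x axis, kb, gene shaded). The 11 kept-to-48 h regions (red) are spread over the gene among regions of other kinds (grey), and the highest grey points reach 15.3 at 96 h.

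Kazn and Pde4d had 5 such regions each, of 14 and 10 called in 2iL. Genes with 4 each included Arid5b, Cacnb1, E2f2, Evl, Fbrsl1, Mipep, Msi2, Pard3, Plcb4 and Susd6. At Susd6 the other 6 of its 10 regions in 2iL were called in 2iL alone, so that no region within 50 kb was called at 96 h. At E2f2, which encodes a cell-cycle transcription factor, 4 of 5 were kept at 48 h and not called at 96 h, and 3 of those also lay within 50 kb of Id3. Of all 21887 protein-coding genes, 4035 (18.4%) had at least 1 such region within 50 kb, and 3345 of these had exactly 1.

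Gene lists of the naive state and of the pathways that act on it were then read against that 18.4%. Of 234 genes in 14 lists, 83 (35.5%) had a kept-to-48 h region within 50 kb. Most listed genes are near ESRRB regions of any kind, so the share among genes with a 2iL region is the closer comparison: 83 of 184 (45.1%), against 32.9% of all 12251 such genes. Counted over regions, 103 of the 298 called in 2iL and at 48 h near a listed gene (34.6%, 29.2 to 40.3) were not called at 96 h, against 38% of all. Of 16 tissue-specific control genes, such as those for albumin and haemoglobin, 8 had a 2iL region and 0 a kept-to-48 h region. Only 3 regions called in 2iL and at 48 h lay near these genes, and 0 of 3 has an interval of 0 to 70.8%, which takes in 38%. Because the lists were chosen with earlier results of these data known, these counts are a description.

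**Figure D5:**
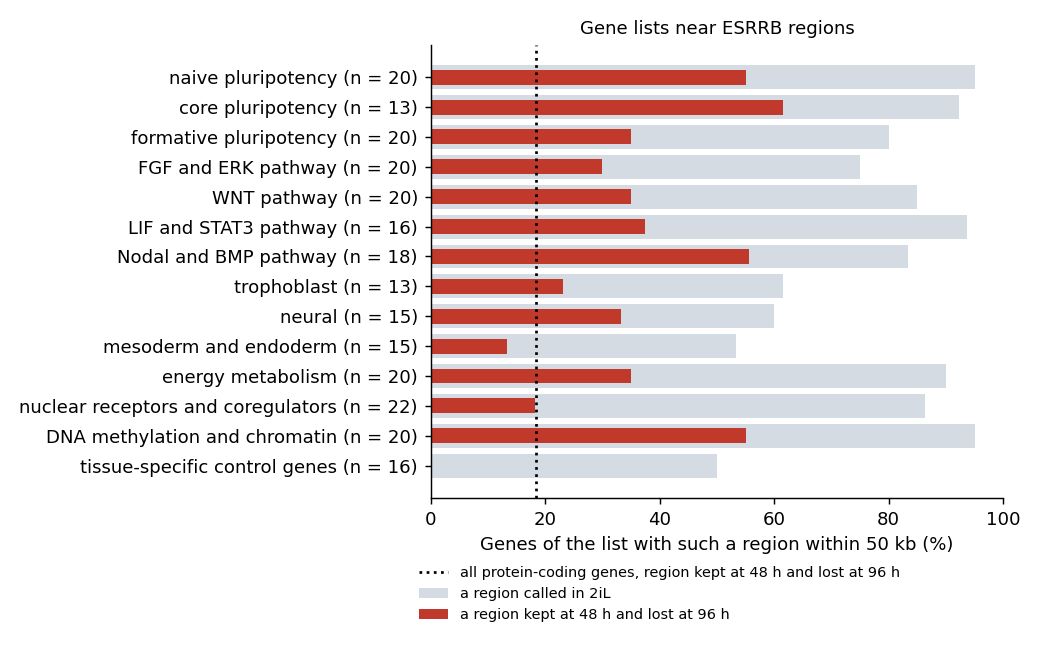
Share of the genes of each list (y axis, with the number of genes) that had a region called in 2iL (grey bars) or a kept-to-48 h region (red bars) within 50 kb (x axis, %). The dotted line is the 18.4% of all protein-coding genes with a kept-to-48 h region, and the red bars run from 0 of 16 control genes, near which only 3 regions were called in 2iL and at 48 h, to 8 of 13 core pluripotency genes.

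Of 20 naive pluripotency genes 11 had such a region, and at none of them was every 2iL region of this kind. These were Nanog, Klf2, Klf5, Tfcp2l1, Tbx3, Zfp42, Dppa3, Nr0b1, Fgf4, Dppa5a and Sox15. Together they held 14 of the 48 regions called in 2iL and at 48 h near listed naive genes (29.2%, 16.95 to 44.1). At Tfcp2l1, a transcription factor of the naive network, the region had folds of 11.5 in 2iL and 4.19 at 48 h, and 3 others near the gene were called in all 3 libraries. Nr0b1, which encodes the nuclear receptor DAX1, had a region at its gene end (chrX:86191299-86192225) with folds of 11.1 and 10.9, and another with 8.27 and 6.93. Both had 48 h values above the 75 percentile of that list. Fgf4, the ligand that drives ERK signalling in these cells, had folds of 7.63 and 6.64 and of 6.93 and 3.95 at its 2 regions, and Sox15 had 7.11 and 4.32.

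Among 13 core pluripotency genes 8 had such a region, and 1 region was shared by the neighbours Dppa4 and Dppa2. Pou5f1, which encodes OCT4, had a region with folds of 7.76 and 4.401 and another with 4.71 and 6.77, among 7 in 2iL. Foxd3 had 7.25 and 5.08, Utf1 6.35 and 2.97, and the region beside Dppa2 and Dppa4 6.08 and 4.29. The last pair had no 96 h region within 50 kb. Sall4, Zfp281 and Trim28 were the others.

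Of 20 genes listed for the formative state, 7 had such a region. Near listed formative genes, 10 of the 28 regions called in 2iL and at 48 h were of this kind (35.7%, 18.6 to 55.9). The region beside Tcf7l1, the repressor that GSK3 inhibition removes, was the strongest, with folds of 18.4 and 6.88, and 2 more lay inside the gene. Etv5, an ETS factor downstream of ERK, had 3 inside it, the highest with 16.99 and 5.63. Pou3f1, which encodes OCT6, had a single 2iL region within 50 kb, 48731 bp away at the end of Fhl3, and it was of this kind. Its folds were 13.4 and 5.31, and 1 other region near the gene was called at 96 h. Zic2 and Zic5 shared a region (5.44 and 4.69), and Lef1 and Dnmt3l had 1 each.

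In the FGF and ERK pathway 6 of 20 genes had such a region. Near these listed genes, 7 of the 28 regions called in 2iL and at 48 h were of this kind (25%, 10.7 to 44.9). Spry2, a feedback inhibitor of ERK signalling, had a region with folds of 8.64 and 6.27 and another with 6.43 and 3.59. Fgfr1, a receptor, had 4.88 and 2.69, the phosphatase gene Dusp6 4.71 and 2.95, and Etv1 4.45 and 3.84. At Etv1 and the receptor gene Fgfr3 it was the only 2iL region within 50 kb. That of Fgfr3 lay 45412 bp from the gene, at an end of Letm1. Spry1 was the sixth.

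In the WNT pathway 7 of 20 genes had such a region. They held 12 of the 20 regions called in 2iL and at 48 h near listed WNT genes, 60% (36.1 to 80.9), an interval that takes in the 38% of all regions. Axin2, a direct target and inhibitor of the pathway, had a region with folds of 5.94 and 7.76 and another with 5.23 and 3.80, and no 96 h region within 50 kb. Rnf43, which encodes a ligase that removes WNT receptors, had 3 of its 5 regions of this kind, the highest with 8.25 and 3.95. Tcf7, which encodes a transcription factor of the pathway, had 6.45 and 5.52 at its only 2iL region, and Cdx1, a target, 6.45 and 3.71 at the stronger of its 2. Lgr4, Notum and Lrp6 were the others.

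Among 16 genes of the LIF and STAT3 pathway 6 had such a region, Tfcp2l1 again among them. Of the 23 regions called in 2iL and at 48 h near listed genes of the pathway, 6 were of this kind (26.1%, 10.2 to 48.4). The STAT target Gadd45g had folds of 7.92 and 3.74, Cish, a feedback inhibitor, 6.26 and 4.55, and Bcl3 5.99 and 3.62. The receptor gene Lifr and the kinase gene Pim1 each had 1 such region and at least 1 more that was called in all 3 libraries.

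In the Nodal and BMP pathway 10 of 18 genes had such a region. Acvr1b, a Nodal receptor, had 13.1 and 3.79 and the ligand gene Bmp4 had 11.2 and 4.51, and neither had a 96 h region within 50 kb. At Id3, a BMP target that restrains differentiation, all 3 regions of 2iL were of this kind, with folds of 9.64 and 6.61, of 6.29 and 3.90 and of 4.06 and 6.66. The receptor gene Bmpr1a had 8.86 and 5.399. Nodal, the neighbours Lefty1 and Lefty2, Smad6, Smad7 and Id2 had 2iL folds of 4.11 to 6.61.

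Genes of other lineages were also near such regions. Of 15 neural genes 5 had such a region, and they held 7 of 10 regions called in 2iL and at 48 h, 70% (34.8 to 93.3). Msi1, an RNA-binding protein of neural stem cells, had 10.4 and 6.59, the Notch ligand gene Dll1 9.33 and 6.64, Satb1 7.13 and 6.38 at the stronger of 2, and Tubb3 6.05 and 5.31. Of 15 mesoderm and endoderm genes Cxcr4 had 7.51 and 6.74 and Sox17 5.31 and 2.59, each at its only 2iL region. These were 2 of the 5 regions called in 2iL and at 48 h near that list (40%, 5.27 to 85.3). Of 13 trophoblast genes Tfap2c had 5.93 and 3.73, Cdx2 4.12 and 4.97 and Id2 4.11 and 3.17. These were 3 of the 16 regions called in 2iL and at 48 h near listed trophoblast genes (18.8%, 4.05 to 45.6).

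Genes of energy metabolism, nuclear receptors and chromatin completed the lists. Of 20 energy genes 7 had such a region, 7 of the 24 called in 2iL and at 48 h near listed energy genes (29.2%, 12.6 to 51.1). These lay within 50 kb of Cox6c, Atp5a1, Cycs (4.53 and 2.73), Ndufs1, Atp5b, Cs and Cox5a. Those of Cs and Cox5a were 10636 and 11417 bp from the gene. Of 22 nuclear receptor and coregulator genes 4 had one. The 4 were Nr0b1, Rara (6.30 and 3.78 at the stronger of 2), Nrip1 (4.99 and 7.06, but 49 bp from a 96 h region) and Ncoa1 (4.45 and 4.39). They held 6 of 34 regions called in 2iL and at 48 h (17.6%, 6.76 to 34.5), the one list whose interval did not take in 38%. The 14 lists were compared without a test, and the 4 genes became 8 when sharing needed an overlap of 50% of both intervals. Of 20 genes of DNA methylation and chromatin 11 had one. Near these listed genes, 15 of the 35 regions called in 2iL and at 48 h were of this kind (42.9%, 26.3 to 60.6). Hdac2, a histone deacetylase gene with no 96 h region within 50 kb, had 6.70 and 7.55 and 5.62 and 3.89. Tet1 and Tet2, which encode enzymes that oxidise methylcytosine, had 6.53 and 6.62 and 5.89 and 8.46. Suz12, a subunit of Polycomb complex PRC2, had 6.45 and 5.32 at the stronger of 2, and Jarid2, a partner of PRC2, had 3 of this kind among 10.

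For 15 of the 184 listed genes with a 2iL region (8.15%), every such region within 50 kb was kept at 48 h and not called at 96 h, against 8.95% of all 12251 genes. These were Pou3f1, Fgfr3, Etv1, Tcf7, Lgr4, Cish, Id3, Sox21, Dll1, Satb1, Sox17, Cxcr4, Cycs, Cox6c and Mbd3. Most had a single 2iL region, while Id3 had 3 and Satb1 had 2. Those of Pou3f1, Fgfr3 and Mbd3 lay 48731, 45412 and 43929 bp from the gene, at ends of Fhl3, Letm1 and Adamtsl5. For 30 of the 184 the strongest 2iL region was of this kind, for 93 it was called in all 3 libraries, for 56 in 2iL alone and for 5 in 2iL and at 96 h. Over all 13642 merged regions called in 2iL, 19.1% were kept at 48 h and not called at 96 h.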

How the data were processed

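ESRRB ChIP-seq peak lists of 3 libraries (2iL, 48 h and 96 h, 1 each) were used; the 3 input libraries were not used here. Per the submitters' processing notes, bcl2fastq 2.20.0.422, BWA, SAMtools, Picard and MACS2 were run and the build was mm10; their roles, other versions and the threshold for calls were not given in the sources used here. A deposited line is a summit with the authors' score (capped at 1000), their fold enrichment, a ratio to local background, their −log10 p-value, their −log10 q-value and a summit offset in bp. Each list was called by the authors on 1 ESRRB library, and whether an input library served as its control was not given. Score was not used.

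Unique intervals were merged with bedtools 2.31.1 at an overlap of at least 1 bp, and each region took its highest summit per library. Fold and p together gave reads at the summit, whole within 0.05 for 100% of summits, after the calculation was tested on simulated data. The lists held 13767, 10970 and 7018 regions, with medians of 51, 68 and 45 reads at the highest summit. Folds are relative to each library's own background, so regions were ranked within a library. Genes are 21887 protein-coding spans of the RefSeq table for GRCm38.p6, and 172 of 234 listed genes had a promoter window. Listed Tcf3 is the current symbol of a bHLH gene.

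With 1 library per condition no test was possible. Shares carry exact Clopper-Pearson 95% intervals (scipy 1.17.1), which cover counting error only. The regions and the gene lists were chosen with earlier results of these data known. Named were the 12 regions of highest fold in 2iL and at 48 h, the 5 with the 48 h fold most above and most below the 2iL fold, the genes with most such regions (ties kept, not all reported here), listed genes with one within 50 kb (values for the 4 of highest 2iL fold per list), those with no other 2iL region, and promoter windows with TCAAGGTCA. The other printed promoters, microRNA clusters and respiratory genes were picked with values in view. Alternatives were lists of equal length, a q of at most 1e-05, other rules of overlap and distance, a minimum 48 h fold and other gene assignments.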

Additional observations from a re-analysis of the deposited data

How the results depend on the processing

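The choice of regions moved most values. With the lists shortened to equal length, 980 regions remained (25.7% of those called in 2iL and at 48 h), with median folds of 7.79 in 2iL and 5.63 at 48 h, 4.08% at gene ends, 46.8% inside a gene span, gene ends included (49.9% of the 2611 regions), 20.1% beyond 50 kb, 8.06% with a region called in all 3 libraries within 10 kb, and 27 listed genes. With a 48 h fold at or above that list's median there were 1079 regions (25.2%), with median folds of 6.71 and 6.05, 3.52% at gene ends, 47.3% inside a gene span, 20.4% beyond 50 kb and 30 listed genes. When sharing needed an overlap of 50% of both intervals, the share not called at 96 h was 44.7%, the median folds 6.25 and 4.91, and the share with a region called in all 3 libraries nearby 10.3%. That share was 10.4% where no 96 h interval was allowed within 1 kb. A window of 10 kb left 50 listed genes. With AAGGTCA in place of TCAAGGTCA, 34.8% of promoter windows held the motif rather than 2.90%. In the middle 20% of regions, gene ends minus elsewhere was -28.4 percentage points by 48 h fold, -17.2 by 2iL fold and 2.36, reversed, by 48 h reads, the last 2 rankings added after the data were seen. Of 60 values recomputed, those above included, 34 moved by less than their interval or by less than 1.5 times, as did 78 of 112 counts for single lists. The naive list ran from 2 to 12 genes, WNT from 2 to 7, nuclear receptors from 1 to 8 and the control list stayed at 0. The cause of these shifts was not tested. No paired analysis was possible because each condition had 1 library, and no replicate could be left out. A region below the threshold at 96 h is not told apart from one without ESRRB, and the part of depth in the calls was not tested.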
